A study of Bos taurus with 61 samples.

Results

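The transcriptome of the hypothalamus was set against that of the pituitary gland in POST heifers, that is, in Brangus heifers (3/8 Brahman, 5/8 Angus) that had reached puberty and were slaughtered in the mid-luteal phase of the estrous cycle. Genes entered the comparison when the mean RPKM, a read number scaled to exon length and to the size of the library, was 0.2 or more in either tissue, which held for 15728 of the 24616 genes in the table. The hypothalamus (HYP) was dissected between the optic chiasm and the arcuate nucleus, and the pituitary gland (PIT) was taken as anterior and posterior gland together. The same 4 heifers gave both tissues, and no treatment separated the groups. The series holds 61 RNA-Seq libraries of 8 tissues from PRE (pre-pubertal) and POST heifers of this breed.

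The deposited values are 1 mean per tissue and stage, so a difference between the tissues has no replicate error, and no test was possible. By the decimals of the mean reads, 3 libraries entered the POST hypothalamus means although the labels list 4, and 4 entered the POST pituitary means. The mean unique reads per library summed to 20320672 in hypothalamus and 21348391 in pituitary gland. Differences are given as log2 of hypothalamus minus pituitary gland, each mean RPKM raised by 0.2, and a gene was counted as higher in a tissue when the difference was at least 4-fold (2 on the log2 scale). A gene at 0 in one tissue had to reach an RPKM of 0.6 in the other to be counted. Both tissues are bulk samples, in which fewer cells of a type and less RNA per cell cannot be told apart.

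Neurons of the hypothalamus release peptide hormones into the portal vessels of the pituitary stalk, and these act through G protein-coupled receptors on the endocrine cells of the anterior pituitary gland. Neurons and endocrine cells store peptides in dense-core granules, cut prohormones with the same enzymes and release the products by calcium-triggered exocytosis. Fast transmission by glutamate and GABA, long axons and dendrites belong to neurons, while the gonadotropins, prolactin, growth hormone, thyrotropin and corticotropin are made by separate cell lineages of the anterior gland. The posterior gland consists of axon endings of hypothalamic neurons and of pituicytes, which are glial cells.

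In the POST heifers 1572 genes were at least 4-fold higher in hypothalamus (9.99% of the genes compared) and 645 were at least 4-fold higher in pituitary gland (4.1%). The remaining 13511 genes, 85.9% of those compared, lay within 4-fold. The hypothalamus held 70.9% of the genes counted in either direction. This split depended on the scaling, because the 10 most abundant genes took 46.6% of the summed RPKM in pituitary gland and 8.41% in hypothalamus. When both tissues were scaled to the same sum without these genes, differences moved by up to 0.30 toward the pituitary gland and the hypothalamus held 60.1% of the genes counted. The median difference over all genes compared was 0.10 as deposited and -0.20 after this rescaling. The values below are as deposited, and each list is read beside the median of 0.10.

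By level, 11980 genes (76.2%) had an RPKM of at least 1 in both tissues. Another 315 (2.0%) had at least 1 in hypothalamus and less than 0.2 in pituitary gland, and 173 (1.1%) had the reverse. Many of the genes that differed were read in both tissues at different levels. Of the 1572 genes higher in hypothalamus 834 had an RPKM of at least 1 in both tissues, and of the 645 higher in pituitary gland 253 did. These counts include traces of very abundant transcripts, such as prolactin with 180.4 in hypothalamus and 167975 in pituitary gland. Such traces were not counted apart. At the lower limit of the comparison, 216 genes had a higher mean from 0.2 up to 0.25, with a median of 15.9 mean unique reads, and none of them could reach the 4-fold rule, while 306 genes from 0.15 up to 0.2, with a median of 13.5 reads, stayed out.

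**Figure D1:**
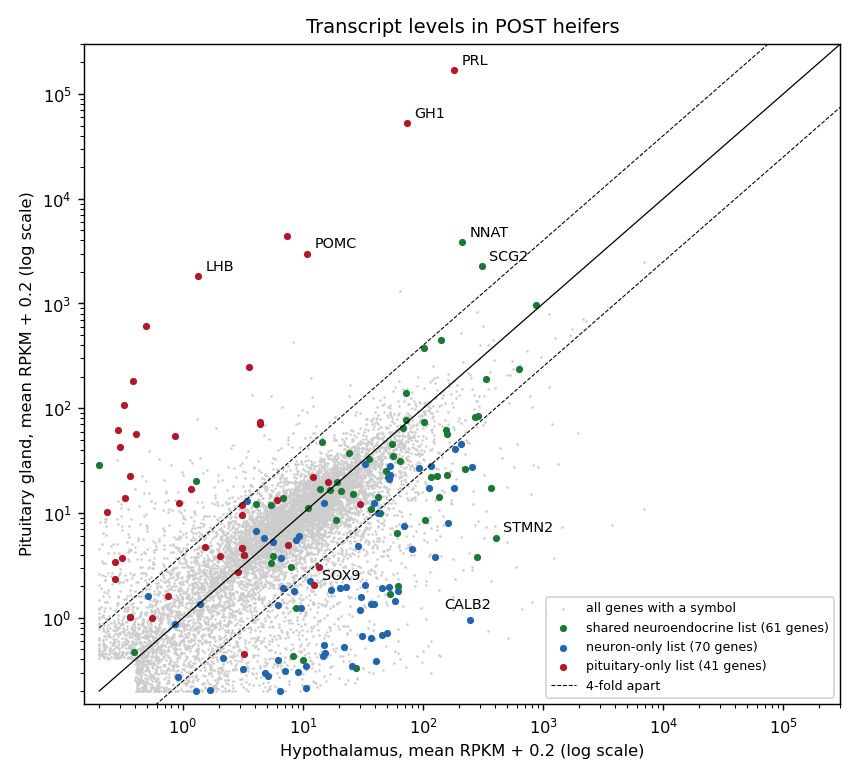
Mean RPKM plus 0.2 of each gene in POST hypothalamus (horizontal, log scale) and POST pituitary gland (vertical, log scale), with 1 point per gene, the solid line marking equal levels and the dashed lines a 4-fold difference. Most points of the shared neuroendocrine lists (green) lie between the dashed lines, those of the neuron-only lists (blue) lie mostly below them, and those of the pituitary-only lists (red) reach far above them, as LHB at 1820.4 and PRL at 167975 in pituitary gland do.

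Genes known from both neurons and endocrine cells differed less between the tissues than neuron-only and pituitary-only genes, but more often than the genes compared as a whole. The lists were named for where genes are known to act and were chosen with earlier results of these data known. Their order is therefore a description and not a test. Of the 61 shared neuroendocrine genes compared, 40 (65.6%) lay within 4-fold, against 85.9% of all genes, 17 were higher in hypothalamus and 4 in pituitary gland, with a median of 0.79; over all genes 9.99% were higher in hypothalamus and 4.1% in pituitary gland. Of the 70 neuron-only genes, 51 were higher in hypothalamus and none in pituitary gland, with a median of 3.25. Of the 41 pituitary-only genes, 23 were higher in pituitary gland and 3 in hypothalamus, with a median of -3.64. An RPKM of at least 1 in both tissues was reached by 55 shared genes (90.2%), 43 neuron-only genes (61.4%) and 22 pituitary-only genes (53.7%), against 76.2% of all genes compared. The pituitary-only count includes PRL, GH1, CGA and LHB, whose hypothalamic means were at most 0.162% of their pituitary means. In the PRE heifers, which are other animals, the medians of these lists were 0.69, 2.71 and -2.89.

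The granins, acidic proteins that form the core of secretory granules, stood at high levels in both tissues and higher in the pituitary gland. Secretogranin II (SCG2) had an RPKM of 306 in hypothalamus and 2268 in pituitary gland, a difference of -2.89 and the one 4-fold difference in this list. Chromogranin A (CHGA) had 101 and 378 (difference -1.9), and chromogranin B (CHGB) had 142 and 445 (-1.65), both within 4-fold. CHGA passed the 4-fold rule once the tissues were rescaled, at -2.21. VGF, a granin-like precursor induced by nerve growth factor, had the opposite order, with 64.2 in hypothalamus and 31.2 in pituitary gland (1.04).

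The enzymes that turn prohormones into peptides were all within 4-fold. Prohormone convertase 1 (PCSK1), which makes the first cuts, had 24 in hypothalamus and 37.2 in pituitary gland, and prohormone convertase 2 (PCSK2) had 19 and 19.5. Carboxypeptidase E (CPE), which trims the cut ends, had 334 and 189 (0.83). Carboxypeptidase D (CPD) was the furthest apart of these enzymes, with 41.6 and 13.9 (1.57), and was past 4-fold in PRE heifers (2.08). The amidating enzyme PAM had 101 and 73.6 (0.45), and glutaminyl cyclase (QPCT), which closes the N-terminal ring of peptides such as TRH, had 20.3 and 15.9 (0.35). All 10 granin and processing genes compared had an RPKM of at least 1 in both tissues. Their median was 0.16 as deposited and -0.15 after rescaling, so the list as a whole has no firm direction. In PRE heifers it was -0.37.

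The exocytosis list was higher in hypothalamus for 7 of 22 genes and for none in pituitary gland, with a median of 1.27. The SNARE proteins SNAP25 and VAMP2 were each more abundant in hypothalamus but within 4-fold. SNAP25, on the plasma membrane, had 272 and 82.9 (1.71), and VAMP2, on the vesicle, had 285 and 84.8 (1.74). Within families of related proteins the members were not at like ratios. Synaptotagmin 1 (SYT1), the fast calcium sensor of synaptic vesicles, had 129.6 in hypothalamus and 22.5 in pituitary gland (2.52), and synaptotagmin 7 (SYT7), a slower sensor with higher calcium affinity, had 14.3 and 47.2 (-1.71). SYT7 stood within 4-fold by RPKM and past it when the mean unique reads were used (-2.79).

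RAB3 proteins, GTPases that tether vesicles, showed the same contrast among paralogs. RAB3A had 223 in hypothalamus and 26 in pituitary gland (3.09), and RAB3B had 35 and 32.2 (0.12). The synaptic vesicle protein SV2A had 103 and 8.37 (3.59), and SV2C had 8.09 and 0.233 (4.26). Of other granule genes in the list, PTPRN (IA-2), a transmembrane protein of dense-core granules, had 71.6 and 139 (-0.96), its paralog PTPRN2 had 54.5 and 45.8 (0.25), and the granule priming factor CADPS had 48.8 and 25.2 (0.95).

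Among the regulators and cytoskeletal genes of the shared group, 10 of 29 were higher in hypothalamus and 3 in pituitary gland. The neuroendocrine zinc-finger factor INSM1 had 1.07 in hypothalamus and 19.9 in pituitary gland (-3.98), and NEUROD4, a basic helix-loop-helix factor, was listed at 0 in hypothalamus and had 28.6 in pituitary gland. Neuronatin (NNAT), a small membrane protein of neuroendocrine cells, was among the most abundant pituitary transcripts, with 3845 there and 211 in hypothalamus (-4.18). The 10 genes on the other side were of several kinds. The growth-cone protein GAP43 had 279 in hypothalamus and 3.59 in pituitary gland (6.2), and the tubulin-binding protein STMN2 had 404 and 5.63 (6.11). The RNA-binding protein ELAVL2 had 27.3 and 0.13 (6.38). The cell adhesion molecule NCAM1 had 135 and 14 (3.25), and the G protein subunit GNAO1 had 117 and 21.7 (2.41). Several members had nearly equal levels: the stimulatory G protein subunit GNAS had 879 and 967, the imprinted factor PEG3 had 71.2 and 77.3, and the homeodomain factor NKX2-2 had 10.8 and 11.

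**Figure D2:**
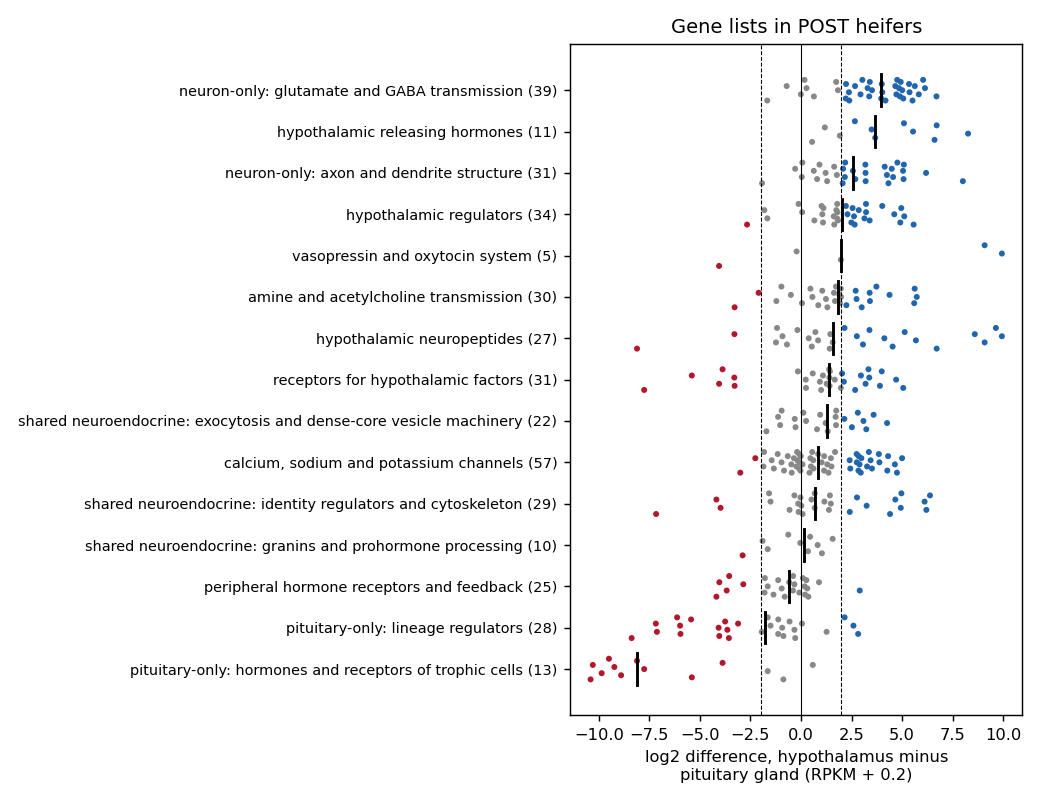
Difference of log2(mean RPKM + 0.2), hypothalamus minus pituitary gland, of every compared gene of 15 lists in POST heifers, with 1 point per gene (blue at least 4-fold higher in hypothalamus, red in pituitary gland, grey within 4-fold), black bars for list medians and the number of genes in parentheses. The medians run from -8.11 for the pituitary hormones and receptors to 3.97 for glutamate and GABA transmission, and the granins and processing enzymes sit near 0.

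Genes of fast synaptic transmission were mostly higher in hypothalamus. Of the 39 genes of glutamate and GABA transmission compared, 31 were higher in hypothalamus and none in pituitary gland (median 3.97, PRE 3.36). The vesicular glutamate transporter SLC17A6 had 45.1 in hypothalamus and 0.487 in pituitary gland (6.04), and the GABA-synthesizing enzyme GAD2 had 39.9 and 0.185 (6.7). The obligatory NMDA receptor subunit GRIN1 had 58.4 and 1.24 (5.34). These 3 genes mark neurons that release or receive the main fast transmitters.

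The 8 members within 4-fold included receptor subunits that the pituitary gland held at a like level. The delta subunit of the GABA-A receptor (GABRD) had 3.88 in hypothalamus and 6.47 in pituitary gland (-0.71), while the subunit GABRB2, past 4-fold, had 15.1 and 0.259 (5.06). Of the kainate receptor subunits, GRIK5 had 14.7 and 12.1 (0.27) and GRIK1 had 5.95 and 0.193 (3.97). SLC17A7, the vesicular glutamate transporter of cortical neurons, was low in both tissues, at 0.307 and 1.41.

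Of the 31 genes of axon and dendrite structure, 20 were higher in hypothalamus and none in pituitary gland (median 2.57), but 27 of the 31 still had an RPKM of at least 1 in both tissues. The neurofilament light chain NEFL had 253 in hypothalamus and 27.3 in pituitary gland (3.2), the heavy chain NEFH had 80.6 and 4.38 (4.14), and the related filament protein INA had 92.1 and 26.8 (1.78). The calcium-binding protein calretinin (CALB2) had the widest gap of the list, with 244 and 0.75 (8.01). The active-zone scaffold PCLO had 5.4 and 5.14, and the activity-regulated gene ARC had 3.23 and 12.8 (-1.93, and -2.06 with the median of genes at 5 or more in both tissues set to 0). Some calls depended on the scaling: the microtubule protein MAPT (2.06) and the vesicle protein SYP (2.19) were each at least 4-fold higher as deposited and at 1.76 and 1.88 after rescaling.

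The hormones of the anterior pituitary gland had the widest differences of all lists, with 10 of 13 hormones and receptors higher in pituitary gland and a median of -8.11. Prolactin (PRL, chromosome 23 of UMD3.1 from 35105135 to 35113759) had an RPKM of 180.4 in hypothalamus and 167975 in pituitary gland (-9.86). Growth hormone (GH1, chromosome 19 from 48768618 to 48772014) had 72.7 and 52868 (-9.5). The alpha chain that the glycoprotein hormones share (CGA, chromosome 9 from 63677991 to 63694859) had 7.2 and 4453 (-9.23). The beta subunits, which give each glycoprotein hormone its receptor specificity, lay lower than CGA. The luteinizing hormone subunit LHB (chromosome 18 from 56026310 to 56027284) had 1.14 and 1820.4, the largest difference by RPKM of any gene compared at -10.41. Its mean unique reads were 27 in hypothalamus and 5351 in pituitary gland, and those of PRL were 3954 and 3618900. The gap of LHB is thus narrower by unique reads, and its rank does not hold there. The thyrotropin subunit TSHB had 0.286 and 613 (-10.3), and the follicle-stimulating hormone subunit FSHB had 0.183 and 183 (-8.9). Pro-opiomelanocortin (POMC), the precursor of corticotropin that neurons of the arcuate nucleus also make, had 10.6 in hypothalamus and 2986 in pituitary gland (-8.11). The list made up 44.1% of the summed RPKM in pituitary gland and 0.0757% in hypothalamus.

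The transcription factors that set the pituitary lineages were higher in pituitary gland for 13 of 28 members and higher in hypothalamus for 3 (median -1.79, PRE -1.65). POU1F1, which drives the prolactin, growth hormone and thyrotropin lineages, had 0.123 in hypothalamus and 107 in pituitary gland (-8.38). The LIM-homeodomain factor LHX3 had 0.096 and 42.8 (-7.18), and PITX1, an early factor of the gland, had 0.208 and 56.9 (-7.13). The gonadotroph factor NR5A1 had 0.159 and 22.2 (-5.96), and SIX6 had 0.66 and 54.1 (-5.98).

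Some factors of pituitary development are known from both organs and did not separate them. SIX3, of the same family as SIX6, had 11.9 in hypothalamus and 21.9 in pituitary gland (-0.87). SOX2, a factor of progenitor cells and of neural stem cells, had 29.3 and 12.1 (1.26), and ISL1 had 2.92 and 4.43 (-0.57). SOX9 (12.2 and 1.85) and OTX2 (3.03 and 0.255) were higher in hypothalamus. The nuclear receptors NR4A1 and NR4A2, immediate-early factors of the corticotroph response to CRH, were higher in pituitary gland, NR4A1 at 3.37 and 249.9 (-6.13) and NR4A2 at 4.16 and 73.4 (-4.08).

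The hypothalamus had its own regulators, of which 17 of 34 were higher there and 1 in pituitary gland (median 2.03). The POU factor POU3F2, needed for neurons that make CRH, oxytocin and vasopressin, had 11.8 in hypothalamus and 0.052 in pituitary gland (5.57). OTP, a homeodomain factor of the same neurons, had 4.26 and 0.075 (4.02), and SIM1, a factor of the paraventricular nucleus, had 1.69 and 0.014 (3.14). These factors are low in absolute level, and 13 of the 34 members had at least 1 in hypothalamus and under 0.2 in pituitary gland. The exception was TBX3, known from tuberal hypothalamus, with 1.01 in hypothalamus and 7.48 in pituitary gland (-2.67).

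Releasing and release-inhibiting peptides had hypothalamic levels of up to 136 and pituitary levels of up to 3.71, the latter for the substance P precursor TAC1 (24.6 in hypothalamus, 2.67). Of 11 compared, 8 were higher in hypothalamus (median 3.67). Most of the 11 were under 0.2 in pituitary gland and entered only through their hypothalamic mean. For these a higher pituitary mean was not possible, so the direction of the list was largely set by the lower limit. Somatostatin (SST), which inhibits growth hormone release, had 136 in hypothalamus and 0.243 in pituitary gland (8.27). Thyrotropin-releasing hormone (TRH) had 27.7 and 0.066 (6.71), corticotropin-releasing hormone (CRH) had 9.13 and was listed at 0 in pituitary gland, and the cAMP-raising peptide PACAP (ADCYAP1) had 22.3 and 0.031 (6.61). Of the peptides that act on neurons of gonadotropin-releasing hormone, TAC3, the precursor of neurokinin B, had 9.81 and 0.093 (5.09), the RFamide precursor NPVF had 2.05 and was listed at 0 in pituitary gland, and KISS1, the kisspeptin gene, had 0.326 and 0.032, below the 0.6 needed for a 4-fold call. Growth hormone-releasing hormone (GHRH) was near the lower limit as well, at 0.232 and 0.095. The gene of gonadotropin-releasing hormone was not analysed here.

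Several receptors for hypothalamic factors, and the ghrelin receptor, were higher in pituitary gland. The receptor for gonadotropin-releasing hormone (GNRHR) had 0.084 in hypothalamus and 61.3 in pituitary gland (-7.76). The TRH receptor (TRHR) had 0.964 and 16.9 (-3.88), the ghrelin receptor (GHSR) had 0.128 and 13.7 (-5.4), and the corticotroph vasopressin receptor (AVPR1B) had 0.01 and 3.28 (-4.05). The dopamine receptor DRD2, through which dopamine inhibits prolactin release, had 9.58 and 95.1 (-3.28), and tyrosine hydroxylase (TH), which makes dopamine, had 8.73 and 0.229 (4.38). The dopamine receptors DRD1, with 2.42 and 0.049 (3.4), and DRD5, with 3.62 and 0.088 (3.73), were higher in hypothalamus, and DRD3, low in both tissues at 0.25 and 0.104, was not counted.

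Not every receptor of a hypothalamic hormone was higher in the gland. Of the 31 receptors compared, 11 were higher in hypothalamus, 6 in pituitary gland and 14 in neither (median 1.41). The CRH receptor CRHR1 had 7.24 in hypothalamus and 4.77 in pituitary gland (0.58). The PACAP receptor ADCYAP1R1 had 39.6 and 2.46 (3.91), so that ligand and receptor were both higher in hypothalamus. The somatostatin receptors divided among themselves: SSTR1 was higher in hypothalamus (3.99 and 0.454, 2.68), SSTR5 in pituitary gland (0.052 and 2.28, -3.3), and SSTR2 (4.61 and 1.79) and SSTR3 (1.56 and 1.76) in neither. The melanocortin receptor MC4R (2.18 and 0.035) and the orexin receptor HCRTR2 (2.04 and 0.015) were higher in hypothalamus, whereas the related receptor MC3R (1.39) and the neuropeptide Y receptor NPY1R (1.43) were within 4-fold.

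**Figure D3:**
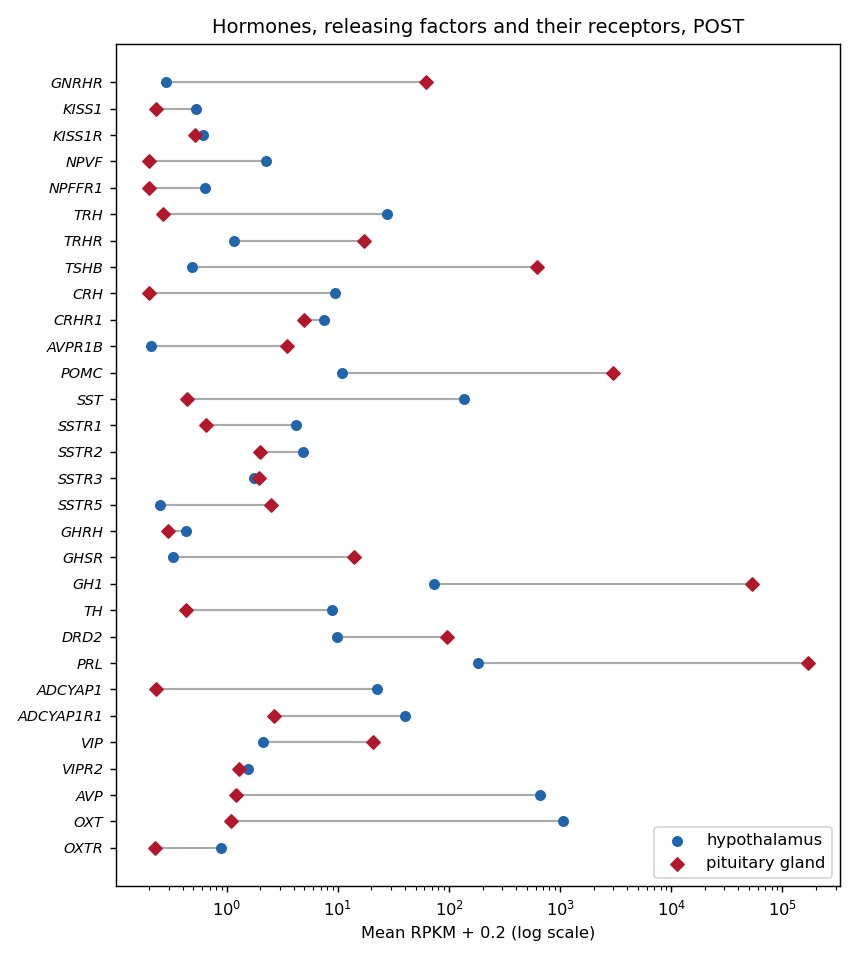
Mean RPKM plus 0.2 (log scale) in POST hypothalamus (blue circles) and POST pituitary gland (red diamonds) of hormones, releasing factors and receptors of the hypothalamus and pituitary axis, with the 2 levels of each gene joined by a line. The releasing peptides (TRH, CRH, SST, ADCYAP1) lie to the right in hypothalamus, the receptors GNRHR, TRHR, AVPR1B, SSTR5, GHSR and DRD2 lie to the right in pituitary gland, and CRHR1, SSTR3, VIPR2 and KISS1R have levels close to each other.

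Neuropeptides made the widest gaps on the hypothalamic side. Oxytocin (OXT) had 1069 in hypothalamus and 0.889 in pituitary gland, the largest difference in that direction of any gene compared (9.94). Vasopressin (AVP), released with it from the posterior gland, had 663 and 1.02 (9.09). Melanin-concentrating hormone (PMCH, chromosome 5 from 66359938 to 66361103) had 507 and 0.435 (9.64), and orexin (HCRT, chromosome 19 from 42941042 to 42942287) had 115 and 0.097 (8.6). The last 2 peptides are made by neurons of the lateral hypothalamus that act on feeding and arousal. In all, 13 of 27 neuropeptides were higher in hypothalamus and 2 in pituitary gland (median 1.57). Proenkephalin (PENK) had 105 and 1.85 (5.68) and galanin (GAL) had 14.8 and 0.448 (4.53).

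The 2 neuropeptides higher in pituitary gland were POMC and vasoactive intestinal peptide (VIP), a stimulator of prolactin release, with 1.9 in hypothalamus and 20.4 in pituitary gland (-3.29). In PRE heifers the VIP means were 2.24 and 2.33 (-0.05). CARTPT, the precursor of cocaine- and amphetamine-regulated transcript, had 22.6 and 17.3 (0.38), and neuropeptide Y (NPY) had 1.91 and 1.09 (0.71). Of the vasopressin and oxytocin system, the oxytocin receptor OXTR had 0.679 and 0.024 (1.97) and the peptidase LNPEP, which degrades both peptides, had 6.53 and 7.62 (-0.22).

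Of 30 genes of amine and acetylcholine transmission, 11 were higher in hypothalamus and 2 in pituitary gland (median 1.81). Histidine decarboxylase (HDC), which makes histamine in tuberomammillary neurons, had 16.4 in hypothalamus and 0.137 in pituitary gland (5.62), and the histamine autoreceptor HRH3 had 23.5 and 0.248 (5.73). The nicotinic receptor subunit CHRNA4 had 11 and 0.03 (5.6). The 2 genes on the pituitary side were DRD2 and the serotonin transporter SLC6A4 (0.298 and 1.93, -2.1). Monoamine oxidase A (MAOA), which inactivates amines, was less apart, with 45.4 and 21.8 (1.05).

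Of 25 receptors and other genes of peripheral hormone feedback, 5 were higher in pituitary gland and 1 in hypothalamus (median -0.58). Estrogen receptor alpha (ESR1) had 0.791 in hypothalamus and 12.5 in pituitary gland (-3.68), and the vitamin D receptor (VDR) had 0.5 and 12.5 (-4.19). The inhibin beta B subunit (INHBB), which forms activin B, had 1.54 and 12.4 (-2.85), and the inhibin coreceptor betaglycan (TGFBR3) had 4.51 and 55.1 (-3.55). Deiodinase 2 (DIO2), which activates thyroxine and is also made by tanycytes and pituicytes, had 1.38 and 25.8 (-4.04). Estrogen receptor beta (ESR2) had 0.898 and 0.963, and the progesterone receptor (PGR) had 0.143 and 0.984 (-1.79). On the hypothalamic side stood SRD5A1, the 5-alpha-reductase that opens the path to neurosteroids, with 18.9 and 2.35 (2.91).

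Ion channels, which give neurons and endocrine cells their electrical activity, were within 4-fold for 35 of 57 members, higher in hypothalamus for 20 and in pituitary gland for 2 (median 0.85). Among the T-type calcium channels CACNA1H had 4.34 in hypothalamus and 21.5 in pituitary gland (-2.26), and CACNA1G had 9.07 and 0.429 (3.88). The L-type channel CACNA1D had 1.66 and 6.41 (-1.83, and -2.12 after rescaling), and the N-type channel CACNA1B had 6.02 and 6.06. The second gene on the pituitary side was the inward rectifier KCNJ5, which opens on inhibitory G protein signals, with 2.58 and 22.1 (-3). The M-current subunit KCNQ3 had 24.4 and 0.568 (5). The pacemaker channel HCN2 had 58.7 and 7.37 (2.96), and HCN4 had 1.98 and 2.58 (-0.35).

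The markers of oligodendrocytes and astrocytes separated the dissections as the labels do, and several other marker lists, given below, did not. All 15 oligodendrocyte and myelin markers were higher in hypothalamus (median 7.32), as were all 10 astrocyte markers (median 4.88). Myelin basic protein (MBP) had 6856 in hypothalamus and 10.8 in pituitary gland (9.28), and the astrocyte filament protein GFAP had 1443 and 7.12 (7.62). Glial genes made some of the widest gaps. Among the 15 largest differences on that side were MBP, MOBP, MAG, UGT8, HAPLN2, CMTM5 and C11orf9, the older symbol of the myelin regulator MYRF, beside TUBB4A, a tubulin of myelinating cells and neurons. The 15 largest on the pituitary side were LHB, TSHB, PRL, GH1, CGA, FSHB, POU1F1, POMC, GNRHR, LHX3, NEUROD4, PITX1, the tight junction protein CLDN9 (0.083 and 32), the epithelial keratin KRT19 (0.322 and 38.9) and NR4A1.

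Of 7 markers of tanycytes and pituicytes, 1 was higher in pituitary gland, DIO2 at 1.38 and 25.8, and 2 were higher in hypothalamus (median -0.08). GFAP (7.12) and S100B (29.2), both made by pituicytes and S100B also by folliculostellate cells, were present at levels far below those in hypothalamus (1443 and 1329.8). Of 10 markers of folliculostellate and epithelial cells of the gland, 4 were higher in pituitary gland, 2 in hypothalamus and 4 in neither (median -0.01). EPCAM was at 1.67 in hypothalamus and 64.1 in pituitary gland (-5.11), ALDH1A1 at 11.7 and 127 (-3.42), and the tetraspanin CD9 at 279.5 and 118 (1.25). Of 11 endothelial markers, 2 were higher in hypothalamus, 2 in pituitary gland and 7 in neither (median 0.70). The lowest difference was that of PLVAP, a marker of fenestrated vessels, which are typical of the gland (0.495 and 20.5, -4.9). The highest was that of CLDN5, a marker of the blood-brain barrier (21.4 and 0.637, 4.69). Connective tissue genes were higher in pituitary gland for 7 of 9 (median -2.70) and smooth muscle genes for 3 of 8. The part of these other cell types in the differences of the neuroendocrine lists was not tested. None of the 12 HOX genes examined reached 0.2 in either tissue, the highest mean being 0.108. HOX genes are active behind the midbrain in development.

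Mitochondrial and other widely used genes also differed between the tissues. All 9 transcripts of the mitochondrial genome were more abundant in hypothalamus but within 4-fold (median 1.47), with ATP8 at 6905 and 2488. In PRE heifers their median was -0.19, and in the POST means 8 of the 9 have an RPKM but no unique reads, so their levels rest on reads that were not unique. Of 7 genes used in every cell, 6 had a higher mean in hypothalamus and the median was 1.41, while the elongation factor EEF2 had 314 and 604 (-0.94). The medians of the exocytosis list (1.27), the ion channels (0.85) and the shared neuroendocrine genes together (0.79) lie between the values of these genes. The size of these medians is thus not particular to those lists in these means.

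Low levels of one tissue's hormones were read in the other, and in tissues that should make neither. In POST hypothalamus 8 pituitary transcripts (PRL, GH1, CGA, LHB, TSHB, FSHB, POU1F1 and GNRHR) stood at 0.0467% to 0.162% of their pituitary level, with a median of 0.111%. In POST pituitary gland 11 transcripts of hypothalamic neurons and glia (OXT, AVP, PMCH, HCRT, SST, TRH, MBP, MOBP, MAG, GFAP and SLC1A2) stood at 0.0832% to 0.494% of their hypothalamic level, with a median of 0.158%. The highest shares were those of GFAP (0.494%) and SLC1A2 (0.429%), and the others reached at most 0.238%. Pituicytes also make GFAP, so its share is not taken as a limit for traces. Liver and muscle held like shares of the pituitary transcripts, with medians of 0.0652% and 0.0581%. Muscle transcripts stood at like traces in both: all 11 skeletal muscle markers were within 4-fold between the tissues (median 0.02), the creatine kinase CKM having 9.03 and 9.05, and their shares of the level in longissimus dorsi muscle had medians of 0.102% in hypothalamus and 0.101% in pituitary gland. The source of these traces was not tested. A level of one tissue's abundant transcript at or below such a share of the other, such as OXT and AVP in the pituitary gland or GNRHR in the hypothalamus, is not read here as expression by that tissue.

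**Figure D4:**
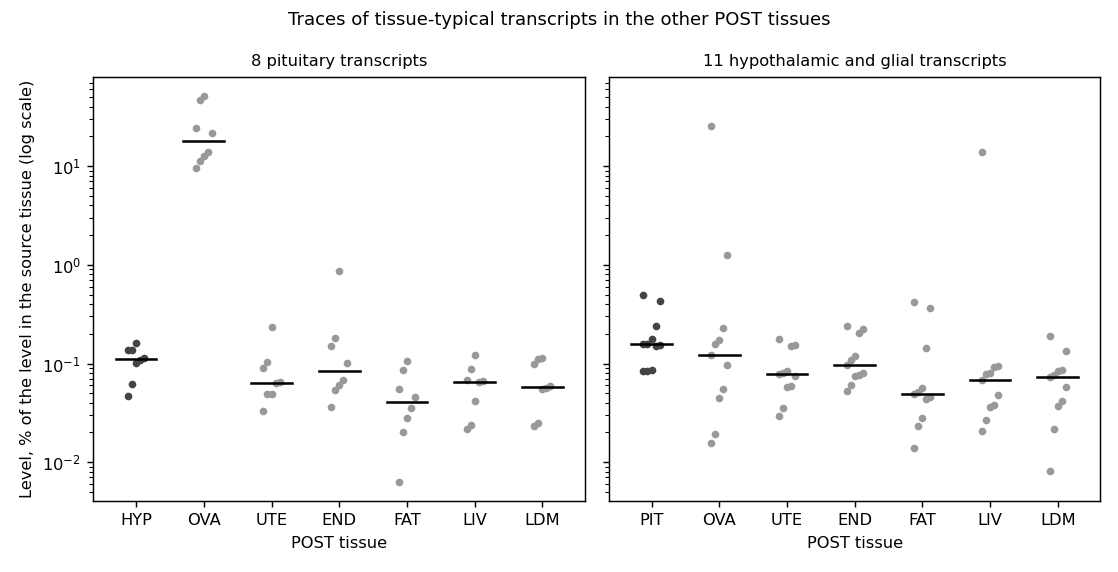
Level of 8 pituitary transcripts (left, source pituitary gland) and 11 hypothalamic and glial transcripts (right, source hypothalamus) in the other POST tissues, as a percentage of the mean RPKM in the source tissue (log scale), with 1 point per transcript and a bar for the median. Shares near 0.1% recur in most tissues, with medians of 0.111% in hypothalamus and 0.158% in pituitary gland, and the ovary (OVA) stands apart for the pituitary transcripts, with 9.47% to 50.9%.

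Among the 8 tissues of POST heifers, the genes higher in hypothalamus were mostly highest there. Of the 1572 genes 1180 (75.1%) had their highest POST mean in hypothalamus, and of the 645 genes higher in pituitary gland 272 (42.2%) had it in pituitary gland. The endometrium had the highest mean for 144 (22.3%) of the latter, among them EPCAM, ESR1 and VDR. The POST ovary mean held 9.47% to 50.9% of the pituitary level of the 8 pituitary transcripts above, GNRHR being at 31.2 there and CGA at 2079, so the rank of the ovary among the tissues cannot be read for pituitary genes. Of the list members, 36 of 39 genes of fast transmission and all 11 releasing peptides were highest in hypothalamus. Of the pituitary hormones and receptors, 11 of 13 were highest in pituitary gland. The share of all genes compared that is highest in each tissue was not computed, so these counts have no such share beside them. Most of the releasing peptides entered the comparison only through their hypothalamic mean, GHRH and KISS1 with means near the lower limit (0.232 and 0.326).

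The PRE heifers gave the same contrast in other animals. In their means 1343 of the same 15728 genes (8.54%) were at least 4-fold higher in hypothalamus and 862 (5.48%) in pituitary gland. Of the 1572 genes higher in POST hypothalamus 1182 (75.2%) were at least 4-fold higher there in PRE heifers too, and 364 had the same sign without reaching 4-fold. Of the 645 higher in POST pituitary gland 464 (71.9%) passed in PRE and 178 had the same sign. Conversely, 53.8% of the 862 genes called for the PRE pituitary gland passed in POST. The medians of 14 of the 15 neuroendocrine lists had the same sign in both stages, the exception being the granins and processing enzymes.

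Several marker lists of vessels, connective tissue and glia had other tissue differences in the PRE means. For endothelium, connective tissue and myelin, the summed pituitary means differed by a larger ratio between the stages than the hypothalamic ones. Smooth muscle sums differed in both tissues, with 183 in PRE and 69.4 in POST hypothalamus, and 555 and 205 in pituitary gland. Blood and immune sums were 17 in PRE and 195 in POST hypothalamus, and 34 and 123 in pituitary gland. The pituitary mean of MBP was 701 before and 10.8 after puberty, while hypothalamus had 9251 and 6856. That of collagen COL1A1 was 1900.3 before and 57.4 after puberty, and that of the endothelial marker VWF 72.3 and 5.01. The median of the endothelial list was -2.16 in PRE and 0.70 in POST. A total of 3 genes were at least 4-fold apart in opposite directions in the stages: DARC, the chemokine-binding receptor of venules (13.8 and 0.281 in POST, 9.67 and 136 in PRE), the thyroxine carrier TTR (54 and 12.1 in POST, 40.9 and 805 in PRE) and a gene with no symbol. DARC was chosen after its values were seen. By their decimals the PRE pituitary means come from 4 libraries, although the labels list 3, and the PRE hypothalamus means from 3, although the labels list 4.

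**Figure D5:**
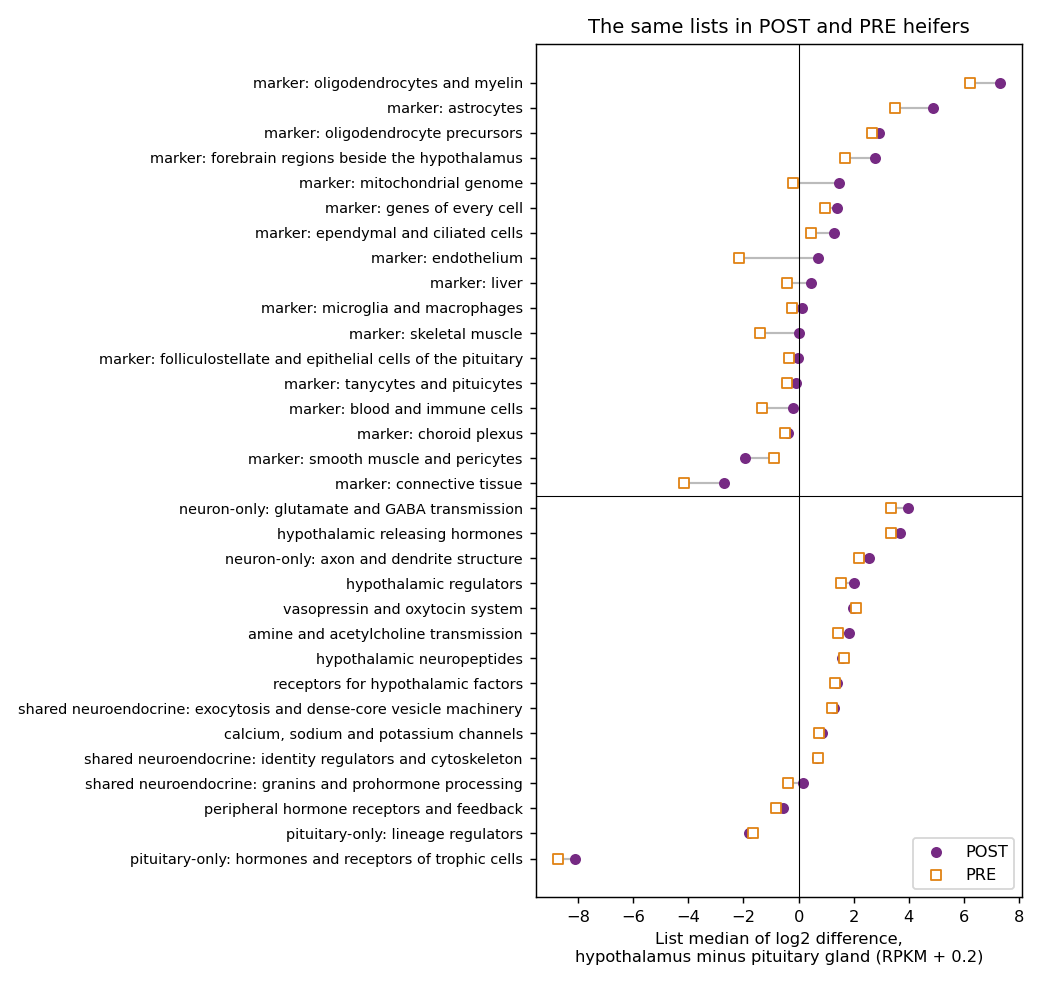
List medians of the difference of log2(mean RPKM + 0.2), hypothalamus minus pituitary gland, in POST (filled circles) and PRE heifers (open squares), with neuroendocrine and neuronal lists below the horizontal line and cell type markers above it. The lists below the line lie close in both stages, and endothelium (-2.16 in PRE, 0.70 in POST) is among the marker lists that do not.

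Some neuroendocrine genes also had tissue differences that were unlike in the PRE and POST means. They are examples without replicate error in either stage. Over all genes, 75.2% of those higher in POST hypothalamus and 71.9% of those higher in POST pituitary gland passed the 4-fold rule in PRE too. TH had 1.46 in hypothalamus and 2 in pituitary gland of PRE heifers (-0.41), against 4.38 in POST. HCRT had 12.6 in PRE hypothalamus and 115 in POST, and the tissue difference was 4.57 in PRE and 8.6 in POST. Choline acetyltransferase (CHAT), the acetylcholine-making enzyme, went the other way, with 3.38 and 0.015 in PRE (4.06) and 0.287 and 0.00674 in POST (1.24). Among receptors and pituitary regulators, GNRHR differed by -8.74 in PRE and -7.76 in POST, DRD2 by -3.41 and -3.28, and POU1F1 by -8.19 and -8.38. The regulator PAX7 (-1.01 in PRE and -3.11 in POST) and the orexin receptor HCRTR1 (0.57 and 2.97) passed the 4-fold rule in POST heifers and not in PRE. Traces of pituitary hormones in hypothalamus also differed by stage, PRL being 31.3 in PRE and 180.4 in POST hypothalamus and GH1 7.24 and 72.7, so that the hormone differences were wider in PRE (-11.61 and -12.86). The part of the marker lists above in these stage differences was not tested.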

How the data were processed

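RNA of hypothalamus and pituitary gland was sequenced as single reads on Illumina instruments, 2 hypothalamus libraries with shorter reads than the rest. The authors aligned the reads to the bovine genome UMD3.1 with its Ensembl annotation in CLC Genomics Workbench and deposited, for each gene, tissue and stage, the mean number of unique reads and the mean RPKM. RPKM is scaled to each library's total, so an abundant transcript lowers every other value of that tissue. The deposited tables hold no value of a single library, no standard deviation and no number of libraries, and the values are the authors' means.

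Symbols came from the tables for 8664 genes, from the study's gene table for 1034 and from UniProt entry names for 1509 (1383 where the entry name equals a symbol on the same chromosome in the RefSeq table of ARS-UCD2.0, used for names only, and 126 paired by hand). Of the genes compared, 9429 carry a symbol, and list members without one are missing. Where a symbol had several gene models, the one with the highest summed level was used. Coordinates are those of UMD3.1 in the files.

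The difference was log2(hypothalamus + 0.2) minus log2(pituitary gland + 0.2), with 0.2 as the lower limit and 4-fold as the rule of size. Named were all listed genes, the 15 largest differences in each direction with an RPKM of at least 10 in the higher tissue, and the 10 most abundant genes of each tissue. Some of these genes are not reported here. Members and lists were chosen with earlier results of these data known. The rule was tested on simulated data. Alternatives were another added amount, fold or lower limit, the mean unique reads scaled to their sum (CPM), centring, and rescaling without the 10 most abundant genes of each tissue (19 genes in all). Unique reads and RPKM are not proportional: the 2 differences were over 1 apart on the log2 scale for 493 genes (3.13%), with a median gap of 0.14. Computation used Python 3.11.15, pandas 2.3.3 and numpy 2.4.6.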

Additional observations from a re-analysis of the deposited data

How the results depend on the processing

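No paired analysis was possible because the deposited values are group means, and leaving out each animal in turn could not be run for the same reason. The counts of genes at least 4-fold higher, 1572 in hypothalamus and 645 in pituitary gland, stayed within 1.5 times under the alternatives except for these. With 1 added to each RPKM 355 genes were higher in pituitary gland. At 2-fold the counts were 3503 in hypothalamus and 2241 in pituitary gland, and at 8-fold 784 and 271. Of the classes by level, hypothalamus only (315 genes) gave 195 with a limit of 2 and 177 in CPM, and pituitary only (173 genes) gave 317 with a limit of 0.5, 106 with a limit of 2 and 94 in CPM. The genes called for pituitary gland in both stages were 464, and 249 with 1 added. Genes highest in hypothalamus among the tissues were 1180, and 2249 at 2-fold and 657 at 8-fold. Genes highest in pituitary gland were 272, and 734 at 2-fold and 144 at 8-fold. The number of lists with a median above 0 was 12, and 11 after rescaling. No named gene changed sign among those counted. By unique reads 17 of the 521 named genes lost and 31 gained the 4-fold call, and after rescaling 11 lost and 12 gained it. In CPM the mitochondrial median was 0, since 8 of its 9 genes have no unique reads. Precision is limited by having no library values, and low means rest on few reads.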

Other observations

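Some abundant transcripts of the hypothalamus belonged to carriers of lipid and iron. Apolipoprotein D (APOD) had a mean RPKM of 1957 in POST hypothalamus and 57.7 in POST pituitary gland, a log2 difference of 5.08. Transferrin (TF), an iron carrier that liver and oligodendrocytes make, had 503 in hypothalamus and 17.7 in pituitary gland (4.82). Of 10 liver transcripts, 3 were at least 4-fold higher in hypothalamus, namely TF, the lipoprotein APOA1 (64.6 and 9.97) and the plasma glycoprotein AHSG (11.9 and 1.62). The other liver transcripts, such as the fibrinogen chain FGB (4.19 and 3.12), were within 4-fold.

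Of 8 markers of forebrain regions beside the hypothalamus, 5 were at least 4-fold higher in hypothalamus (median 2.76). The homeodomain factor GBX2, a marker of the developing thalamus, had 2.34 in hypothalamus and 0 in pituitary gland, and the cortical factor TBR1 had 0.423 and 0. Of 7 ependymal markers, 2 were higher in hypothalamus, the ciliary factor FOXJ1 (6.07 and 0.672) and TMEM212 (1.52 and 0.095). The microglial receptor CX3CR1 had 40.9 and 5.53, the one of 8 microglial and macrophage markers past the 4-fold rule.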
